A study of Mus musculus with 2 samples.

Results

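The primary cilium is a non-motile, microtubule-based antenna that projects from the surface of most cells. Intraflagellar transport carries cargo along it: the IFT-B complex works with kinesin motors towards the tip, and the IFT-A complex works with the dynein-2 motor on the way back. The BBSome is a coat complex that moves membrane proteins in and out, and the transition zone at the base acts as the gate. In the neural tube the primary cilium is best known as the place where Hedgehog signals are received and turned into Gli activity, which patterns the ventral side. RFX transcription factors bind the X-box motif in promoters of cilium genes, and FOXJ1 drives the programme of motile cilia.

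A total of 40 primary cilium genes, chosen by name out of 21854 genes, were examined in open chromatin maps of mouse neural tube. Of these, 16 encode transport proteins (11 of IFT-B, 2 of IFT-A and 3 motor subunits), 8 belong to the BBSome group (6 subunits and 2 chaperonin-like assembly factors), and 10 encode transition zone proteins. The other 6 are Arl13b and Kif7, which link the cilium to Hedgehog signalling, and the transcription factor genes Rfx2, Rfx3, Rfx4 and Foxj1. DNase-seq, which sequences the ends of fragments that DNase I cuts from accessible DNA, was applied to healthy neural tube, the precursor of brain and spinal cord, of B6NCrl embryos at an age of 11.5 days. Males and females were pooled, and no mutant or treated group was analysed here. The labels give 2 biological replicates of this 1 group that carry the same donor label. Nothing in the labels says whether these came from separate litters, and no test across samples was possible with 1 group.

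Replicate 1 held 199653 peaks and replicate 2 held 154324, nearly all 150 bp wide, and the number of reads behind them is unknown. Each peak carries a whole-number score, from 2 to 150 in replicate 1 and from 1 to 148 in replicate 2, which no source used here explains. It was therefore used only as a percentile rank within its own list, and it is the authors' value. In bulk tissue, a site open in few cells and a site weakly open in many cannot be told apart. As a check of the tissue label, all 10 neural tube marker genes had a promoter peak in both libraries. The same was true of 1 of 4 blood markers, 2 of 4 endothelial markers, 0 of 4 liver markers and 1 of 4 markers of striated muscle and heart.

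The promoters of the cilium genes were open throughout. A promoter peak, meaning a peak that overlapped the 500 bp on either side of an annotated transcription start site (TSS), was present at 40 of 40 genes in both libraries, against 66.5% of all genes. By library, the share of all genes was 68.5% in replicate 1 and 67.7% in replicate 2. The strongest promoter peak of a cilium gene ranked in the top 5% of its list for 37 of 40 genes in replicate 1, against 38.5% of all genes. In replicate 2 this held for 29 of 40 genes, against 32.9% of all genes, and 28 genes passed in both. The top 5% began at a score of 125 in replicate 1 and of 109 in replicate 2.

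Those shares count genes without any promoter peak among all genes, so ranks were also compared among genes that had one. The median rank of the strongest promoter peak was 97.96 for the cilium genes and 95.73 for all genes in replicate 1, and 97.14 for the cilium genes and 94.66 for all genes in replicate 2. A total of 33 and 31 of 40 cilium genes lay above the all-gene median in replicates 1 and 2, and 28 did so in both. The lowest rank in replicate 1 was 92.24, for Cc2d2a, and the lowest in replicate 2 was 87.80, for Bbs1. Over all genes the lowest ranks were 0.111 and 0.141.

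**Figure D1:**
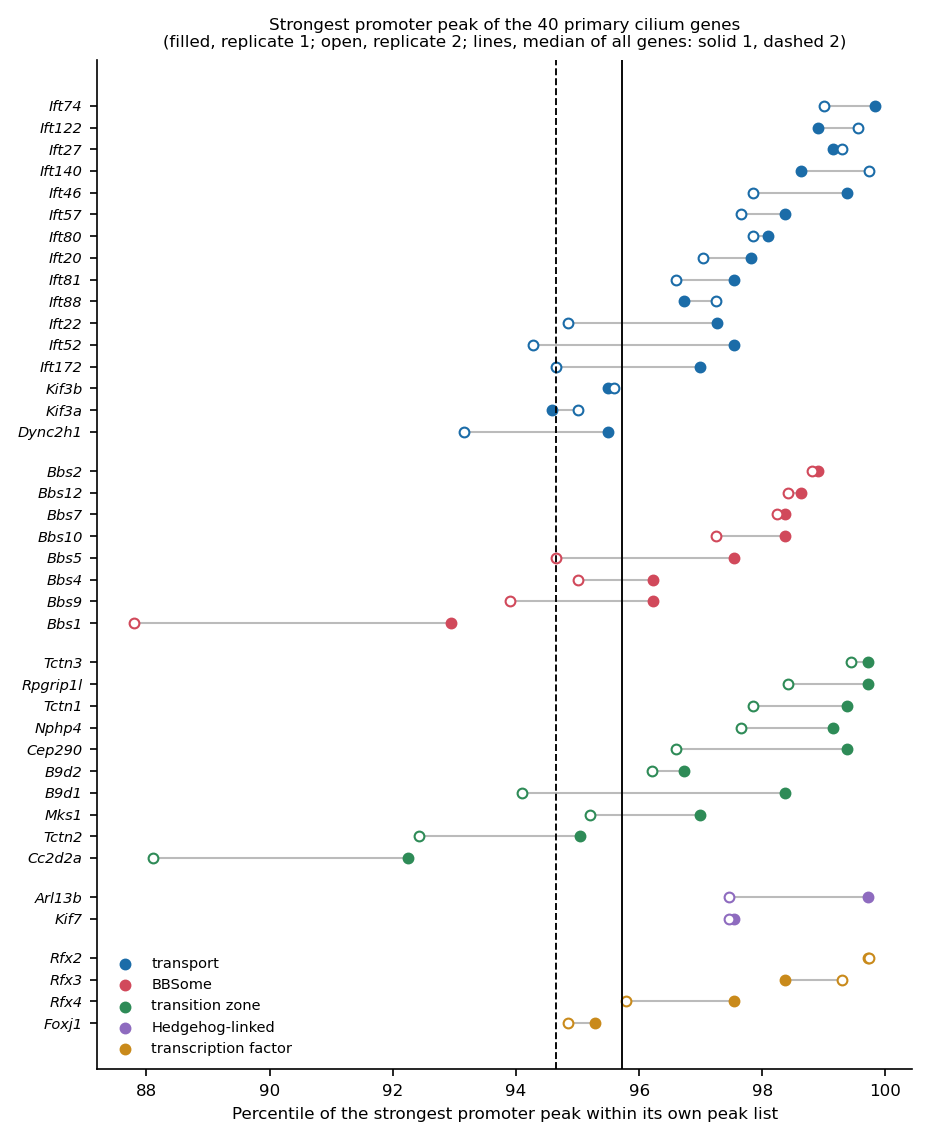
Percentile rank of the strongest promoter peak of each cilium gene within its own peak list (x axis, percent), by gene and class (y axis). Filled points are replicate 1, open points replicate 2, and the vertical lines are the all-gene medians of 95.73 (solid, replicate 1) and 94.66 (dashed, replicate 2). Bbs1 and Cc2d2a stand lowest in both libraries.

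Transport, BBSome and transition zone genes could not be ordered by promoter rank, because the order changed between libraries. In replicate 1 the median rank was 97.68 for transport, 97.95 for BBSome and 98.75 for transition zone genes. In replicate 2 it was 97.14 for transport, 96.13 for BBSome and 96.41 for transition zone genes. The transition zone thus led in replicate 1 and transport led in replicate 2. Within each class the genes spread further apart than the class medians did.

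Among transport genes the highest mean ranks over both libraries belonged to Ift74, which forms the tubulin-binding module of IFT-B with Ift81, and to Ift122, a core subunit of IFT-A. Ift74 ranked at 99.83 in replicate 1 and 98.99 in replicate 2, with its peak at chr4:94614416-94614565 (mm10) in both. Ift122 ranked at 98.90 in replicate 1 and 99.56 in replicate 2, with its peak centred exactly on a TSS in both libraries. The lowest mean ranks were those of 2 motor genes. Dync2h1, the heavy chain of dynein-2, ranked at 95.50 and 93.16, and Kif3a, a subunit of the heterotrimeric kinesin-2 motor, at 94.58 and 95.01. By subcomplex, the median rank was 97.82 and 97.25 for IFT-B, 98.77 and 99.65 for IFT-A, and 95.50 and 95.01 for the motor subunits, in replicates 1 and 2. The 2 IFT-A genes were above every motor gene in each library. The remaining transport genes were Ift20, Ift22, Ift27, Ift46, Ift52, Ift57, Ift80, Ift81, Ift88, Ift172, Ift140 and Kif3b, with ranks from 94.28 (Ift52, replicate 2) to 99.74 (Ift140, replicate 2).

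The BBSome genes held both strong and weak members. Bbs2, a core subunit, ranked at 98.90 and 98.81, and Bbs12, a chaperonin-like gene needed to assemble the complex, at 98.64 and 98.42. Bbs1, the subunit that contacts the membrane GTPase ARL6, ranked at 92.94 and 87.80, and Bbs9, another core subunit, at 96.23 and 93.91. The assembly factors Bbs10 and Bbs12 had a median rank of 98.50 and 97.84, and the 6 subunits 96.88 and 94.84, in replicates 1 and 2. Bbs2 and Bbs7 ranked at or above Bbs10 in both libraries, so the assembly factors were not set apart from the subunits. Bbs4 and Bbs5 ranked between 94.66 and 97.53.

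Transition zone genes were led by Tctn3, a tectonic of the MKS complex, at 99.71 and 99.44, and by Rpgrip1l, a scaffold of the gate, at 99.71 and 98.42. Cc2d2a, which the MKS complex needs for its assembly, ranked at 92.24 and 88.10. Tctn2, another tectonic, ranked at 95.04 and 92.42. The 3 tectonic genes therefore covered most of the range of their class, since Tctn1 ranked at 99.37 and 97.85. B9d1, B9d2, Cep290, Mks1 and Nphp4 lay between 94.10 and 99.37.

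The remaining genes were those that connect the cilium to signalling and transcription. Arl13b, a GTPase of the ciliary membrane, ranked at 99.71 and 97.46, and Kif7, the ciliary kinesin that restrains Gli factors, at 97.53 and 97.46. Of the factors, Rfx2 had the highest ranks, 99.71 and 99.74. Rfx3 ranked at 98.36 and 99.30 and Rfx4 at 97.53 and 95.79. Foxj1 ranked at 95.28 and 94.84, the lowest of the 4 factors, and close to the all-gene median of each library.

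The genes of motile cilia gave a lower level for comparison. All 18 axonemal, radial spoke and multiciliation genes examined had a promoter peak in both libraries, but their median rank was 92.35 in replicate 1 and 90.38 in replicate 2. Of these 18, 4 and 5 reached the top 5%. Another 46 cilium genes, of the same complexes, the basal body, membrane cargo and 1 RFX factor, had median ranks of 96.99 and 96.61, and 45 and 44 of them had a promoter peak. Gpr161, a ciliary receptor that restrains Hedgehog signalling, had none in either library. Tmem17, a transition zone membrane protein, had none in replicate 2.

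Most of the 40 cilium genes had a single promoter peak. A total of 31 of 40 genes in replicate 1 and 29 of 40 in replicate 2 had exactly 1 promoter peak, or 77.5% and 72.5%. Over all genes with a promoter peak, 44.6% and 46.9% had 1. Among the other cilium genes with a promoter peak the share was 53.3% and 47.7%, so it was not general to cilium genes. The 40 genes held 53 promoter peaks in replicate 1 and 54 in replicate 2. All 40 lay in a hotspot, a broader region that the authors called, whose deposited −log10 q-value was at the file's ceiling of 100, against 93.7% and 91.4% of all genes with a promoter peak. Hotspots at the cilium promoters had a median width of 1471.5 bp and 1044.5 bp, against 1573 bp and 1167 bp for all genes. The widest were those of Rfx4, at 7145 bp and 3942 bp, which exceeded 99.4% and 99.5% of genes. Ift140 had hotspots of 4400 bp and 2035 bp, wider than 97.6% and 89.6% of genes, Rfx3 of 3075 bp and 2801 bp, and Ift80 of 3037 bp and 2416 bp.

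The strongest peak lay mostly just upstream of the TSS. The median position of its centre was -35.5 bp in replicate 1 and -28.5 bp in replicate 2 for the cilium genes, where negative values are upstream, and -28 bp and -25 bp for all genes. It was upstream at 32 of 40 cilium genes in each library, or 80%, against 66.5% and 65.4% of all genes. It was within 100 bp of the TSS for 30 and 29 genes, or 75% and 72.5%, against 67.4% and 69.4% of all genes. The last share was close to that of all genes in replicate 2.

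By class, the median position was -21.5 bp in both libraries for transport, -11.5 bp and -19.5 bp for BBSome, and -53.5 bp and -61 bp for transition zone genes. A centre within 100 bp of the TSS was found for 13 and 14 of 16 transport genes and for 7 of 8 BBSome genes in each library. Among transition zone genes it was found for 6 of 10 in replicate 1 and 4 of 10 in replicate 2. These classes hold few genes and share both libraries, and no test of their difference was made. The strongest peak overlapped between the libraries at 38 of 40 genes, or 95%, against 91.4% of all genes with a promoter peak in both. Where it overlapped it moved by a median of 20 bp, the same as over all genes. Over the 40 genes its median position was close to that of all genes, but it lay upstream more often.

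**Figure D2:**
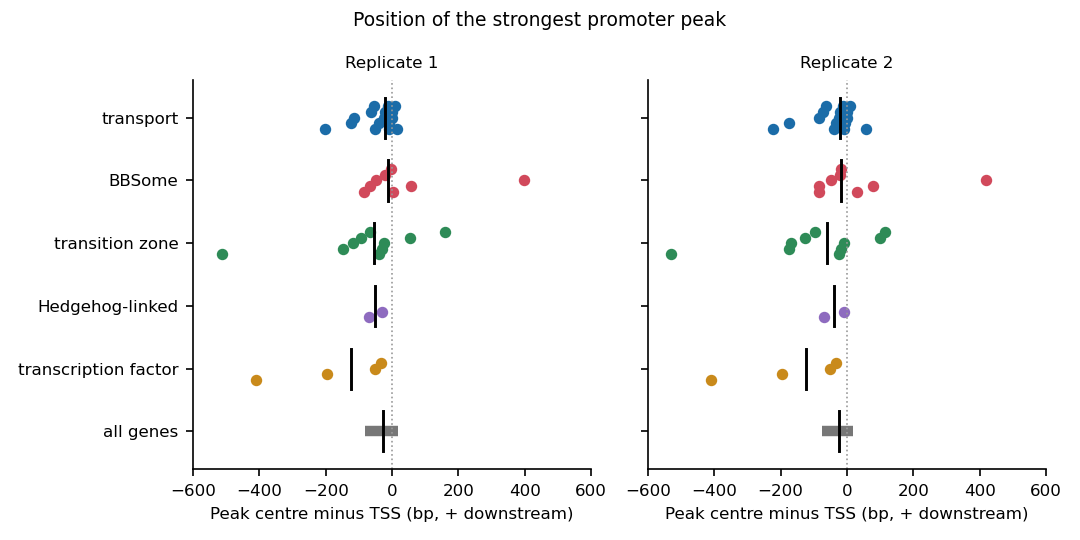
Position of the centre of the strongest promoter peak relative to the TSS (x axis, bp, upstream negative) for each gene class (rows), in each library (panels). Points are genes, black ticks are medians, and the grey bar of all genes spans the middle quartiles. Most points lie just left of the TSS, and Nphp4, Rfx3 and Bbs2 stand far from it.

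Some genes departed from this pattern. The strongest Bbs2 peak lay at 398 bp and 418 bp downstream of the GENCODE TSS in replicates 1 and 2. The Bbs2 start in RefSeq, on the same build, lies inside the gene relative to that TSS, and the peak centre was at -21 bp and -1 bp from it. Nphp4, a scaffold of the NPHP module, had its strongest peak at -512 bp and -532 bp from the GENCODE TSS, and at -108 bp and -128 bp from the nearest RefSeq start. With the promoter window narrowed to 200 bp, Bbs2 had no promoter peak in replicate 2 and Nphp4 none in replicate 1. Rfx3 differed, because its strongest peak at -410 bp in both libraries was still at -384 bp from the RefSeq start.

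A few genes had more than 1 promoter peak. Dync2h1 had 1 peak at each of its 2 open starts, at chr9:7176956-7177105 and chr9:7184436-7184585 in replicate 1. Their ranks were close, 95.50 and 94.81 in replicate 1 and 92.80 and 93.16 in replicate 2, and which of them was stronger changed between libraries. The stronger was at 28 bp from the nearest RefSeq start in replicate 1 and at -7472 bp in replicate 2. At Ift52, a subunit of the IFT-B core, the stronger peak was at -124 bp in replicate 1 and at 56 bp in replicate 2. In replicate 2 the peak at -144 bp ranked at 93.91, next to 94.28 for the stronger one. Cc2d2a had 5 promoter peaks in replicate 1 and 3 in replicate 2, spread over 2 starts, and none of them ranked above 92.24 or 88.10. The strongest lay 10071 bp and 10011 bp downstream of the nearest RefSeq start. Near that RefSeq start the highest ranks were 89.18 and 83.37. Ift140, an IFT-A subunit, had a weaker peak at another start, at ranks of 93.89 and 91.04, and in replicate 2 one more at 72.14. Ift80, an IFT-B subunit, had 2 peaks near 1 start in each library, of which the weaker ranked at 96.72 and 96.21. That weaker peak was centred at -340 bp, beyond the start of its divergent neighbour Smc4, which lies 168 bp from that of Ift80.

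Divergent gene pairs were frequent among the cilium genes. A total of 10 of 40 genes, or 25%, had another protein-coding gene that starts on the opposite strand within 1 kb upstream, against 9.87% of all genes and 14.3% of genes with a promoter peak in both libraries. Among transport genes these pairs were Ift20 with Tnfaip1, Ift80 with Smc4, Ift122 with Mbd4, Ift140 with Cramp1l and Dync2h1 with Dcun1d5. Bbs12 paired with Cetn4, a centrin gene. Transition zone pairs were Tctn3 with Entpd1, Cep290 with Tmtc3, Nphp4 with Kcnab2 and Rpgrip1l with Fto. By class this gave 5 of 16 transport, 1 of 8 BBSome and 4 of 10 transition zone genes. The share was similar outside the 40 genes, with 13 of the 46 other cilium genes (28.3%) and 4 of the 18 motile cilium genes (22.2%).

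The starts of a pair lay from 29 bp (Ift20 and Tnfaip1) to 297 bp (Ift140 and Cramp1l) apart. A promoter peak between such starts cannot be given to either gene. At Ift20, Bbs12, Tctn3, Nphp4 and Rpgrip1l the centre of the strongest peak was nearer to the partner's TSS in both libraries. At Ift140 and Cep290 this was so in replicate 2 only. At Dync2h1 it was also so in replicate 2, while the strongest peak of replicate 1 lay at the other start, away from Dcun1d5. The weaker replicate 1 peak at the paired start was centred at -64 bp, and Dcun1d5 starts 74 bp upstream, so that peak too was nearer to Dcun1d5. The median rank was 98.77 and 98.13 for the 10 paired cilium genes, and 97.53 and 96.00 for the 30 others. Over all genes with a promoter peak, it was 97.82 and 97.03 for paired genes and 95.28 and 94.10 for the rest. The median of the unpaired cilium genes was above that of the unpaired genes of the genome in each library. Whether pairing bears on the ranks was not tested.

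Sequences of the open promoters were searched next for short motifs, on either strand of the strongest promoter peak. The full X-box, with a spacer of up to 3 bases between its arms, is printed in capitals for the cilium genes that carried it. The stretches run 5′ to 3′ on the strand of the gene, with up to 30 bases on either side and at most 50 bases past the TSS. All were read from GRCm38.p6, which is mm10, at chr16:49699177-49699250 (plus strand) for Ift57, chr19:4906583-4906656 (minus) for Bbs1, chr5:122264410-122264454 (minus) for Tctn1, chr5:124598657-124598730 (plus) for Tctn2 and chr19:40612329-40612401 (minus) for Tctn3.
Ift57: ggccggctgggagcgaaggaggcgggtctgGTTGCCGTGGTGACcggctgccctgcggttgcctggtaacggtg
Bbs1: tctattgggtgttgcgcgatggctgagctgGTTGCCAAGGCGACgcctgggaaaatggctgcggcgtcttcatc
Tctn1: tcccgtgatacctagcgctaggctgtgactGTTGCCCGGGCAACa
Tctn2: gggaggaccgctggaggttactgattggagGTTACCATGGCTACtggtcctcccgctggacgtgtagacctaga
Tctn3: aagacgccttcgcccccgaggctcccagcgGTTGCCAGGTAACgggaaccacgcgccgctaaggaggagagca

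The X-box was found in the strongest promoter peak of 4 of 40 cilium genes in replicate 1, against 1.32% of all genes with a promoter peak, and of 5 of 40 in replicate 2, against 1.23%. That is 10% and 12.5% of the cilium genes. Ift57, Bbs1, Tctn2 and Tctn3 carried it in both libraries and Tctn1 in replicate 2, because the replicate 1 peak left 5 bases of the Tctn1 match outside. All 3 tectonic genes were therefore among the carriers, with 1 transport gene and 1 BBSome gene. Bbs1 and Tctn2 carried an X-box although their promoter ranks were among the lowest of their classes, and Tctn3 carried one with the highest rank of its class. The matches were centred at -19.5 bp from the TSS for Ift57, -55.5 bp for Tctn2, -132 bp for Tctn3 and 42.5 bp for Tctn1. That of Bbs1 was centred at 8.5 bp and 0.5 bp in replicates 1 and 2, from the start nearest to each peak. The Tctn3 promoter is shared with Entpd1, so this match lies between both genes. The Ift57 stretch holds another match in lower case letters near its end, which ran 1 base past the edge of the peak in both libraries.

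The core GTTGCC, which is part of many X-box matches and is also counted where the other arm is missing, was more widespread. It was present at 14 of 40 cilium genes in replicate 1, against 7.73% of all genes, and at 13 of 40 in replicate 2, against 7.42%. As shares of the cilium genes these are 35% and 32.5%. The carriers in either library were 7 of 16 transport genes (Dync2h1, Ift57, Ift80, Ift81, Ift88, Ift140 and Ift172), 2 of 8 BBSome genes (Bbs1 and Bbs5), 4 of 10 transition zone genes (Mks1 and the tectonics) and Foxj1. Dync2h1 lost it in replicate 2, where its other start was stronger. None of Rfx2, Rfx3 and Rfx4 carried the core or the full X-box in this peak.

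CCAAT, the motif of the NF-Y factor that is common in promoters, was found at 20 of 40 cilium genes in replicate 1, against 27.1% of all genes, and at 19 of 40 in replicate 2, against 26.3%. Transport genes accounted for 11 of these 20 and 9 of these 19, so 68.8% and 56.2% of the 16 transport genes carried it. Among transition zone genes it was found at 3 and 4 of 10, and among BBSome genes at 3 of 8 in each library.

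The other motifs gave shares close to or below those of all genes. GGGCGG, the GC box, was found at 20 and 19 of 40 cilium genes, against 55.3% and 57.9% of all genes. By class it was found at 2 of 10 transition zone genes in each library and at 5 of 8 BBSome genes. CCGGAAG, the ETS motif, was found at 5 of 40 in each library, against 12.8% and 12.9%, and the NRF1 motif at 3 and 2 of 40, against 7.43% and 8.21%. CACGTG was found at 1 of 40 in each library, against 6.50% and 6.46%, and the CTCF motif at 0 of 40, against 0.762% and 0.744%. The peaks of the cilium genes had a median GC content of 63.3% in each library, against 66.7% and 67.3% for all genes. No match says only that these letters were not in a window of 150 bp.

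**Figure D3:**
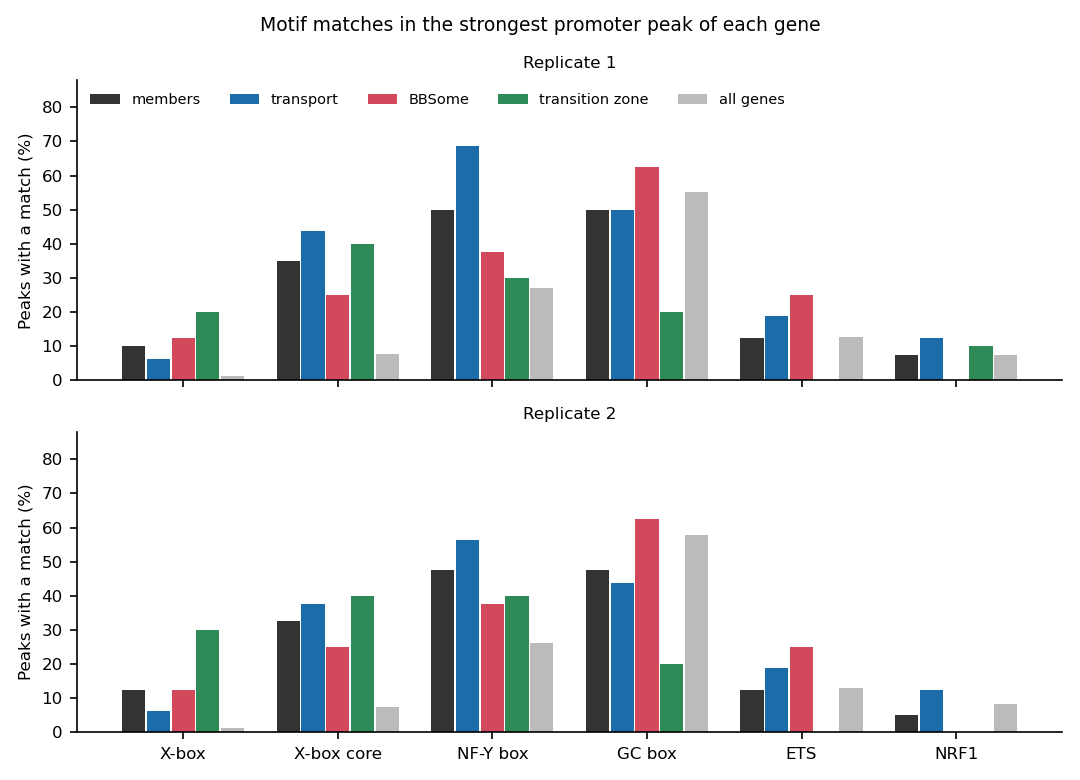
Share of strongest promoter peaks with a motif match (y axis, percent) for 6 motifs (x axis), in replicate 1 (upper panel) and replicate 2 (lower panel). Bars are all 40 cilium genes, the transport, BBSome and transition zone classes, and all genes with a promoter peak. The X-box, its core and the NF-Y box were found more often in the cilium genes than in all genes, and the GC box was not.

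The X-box, GTTGCC and CCAAT were also counted in fixed windows, 250 bp before to 50 bp after each RefSeq start, which do not depend on the peaks. Windows were found for 36 of the 40 genes by symbol, and not for Ift80, Ift81, Ift122 and Foxj1. The X-box was present at 6 of 36 cilium genes, which were the 5 named above and B9d2, a B9-domain protein of the MKS complex, against 1.71% of all genes with a window. GTTGCC was present at 20 of 36, against 14.0%, and CCAAT at 22 of 36, against 42.1%. In the windows, 7 of 10 transition zone genes held GTTGCC and 4 of 10 the full X-box. Of Rfx2, Rfx3 and Rfx4, which lacked the core in their strongest peak, 2 of 3 held GTTGCC in a window and 0 of 3 the full X-box. Other cilium genes carried the X-box and GTTGCC as well. In replicates 1 and 2 the X-box was in the strongest peak of 7 of 45 and 6 of 44 of those other cilium genes that had a promoter peak, and of 2 of 18 motile cilium genes in each. GTTGCC was in 14 and 13 of these other cilium genes, and in 5 and 7 of the 18 motile ones. CCAAT was in 33.3% and 40.9% of the other cilium genes. In motile cilium genes it was in only 16.7% and 11.1%, below the share of all genes.

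Distal peaks were those whose centre lay over 1 kb from every TSS of the gene set. Each was given to the gene with the nearest TSS, which does not show that it acts on that gene. The 40 genes had 286 distal peaks in replicate 1 and 260 in replicate 2, a median of 2 per gene in each library, against 3 and 2 for all genes. Their mean was 7.15 and 6.50, against 7.47 and 5.52 for all genes. Per 100 kb of genome nearest to their TSSs they had 6.85 and 6.23 when pooled, against 5.99 and 4.43 for all genes. The classes lay on both sides of all genes. Transport genes had 3.87 and 3.46, BBSome genes 6.77 and 3.55, and transition zone genes 10.3 in each library. Arl13b and Kif7 had 5.75 in each library, and the factor genes 8.39 and 9.40. Ift20, Ift46, Ift52, Bbs12, Tctn3 and B9d2 had none in either library, which is 15% of the cilium genes, against 22.5% of all genes. Bbs12 had only 0.132 kb of genome nearer to its starts than to those of any other gene, a length called its territory here. Without Nphp4, Rfx4, Rfx3, Bbs9 and Bbs10, the other 35 had 106 and 87. The density of these 35 was not computed, so the pooled density does not describe a typical cilium gene.

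Those 5 genes held most of the distal peaks. Nphp4 had 73 and 78, Rfx4 34 and 44, Rfx3 28 and 29, Bbs9 30 and 16, and Bbs10 15 and 6, in replicates 1 and 2. Ift57, with 12 and 9, had the same mean of 10.5 as Bbs10 and more than Bbs10 in replicate 2. The territories of the 5 genes were long, at 505.6 kb for Nphp4, 188.7 kb for Rfx4, 632.5 kb for Rfx3, 456.6 kb for Bbs9 and 154.2 kb for Bbs10. Relative to that length, Rfx4 was the densest of the 5, with 18.0 and 23.3 distal peaks per 100 kb, followed by Nphp4 with 14.4 and 15.4. Rfx3 had 4.43 and 4.58. Over all genes there were 5.99 and 4.43 distal peaks per 100 kb. In replicate 2 the counts of Rfx4 and Nphp4 include runs of weak peaks, ranked under 15, a limit chosen after the values were seen. At Rfx4, 19 of 44 formed an unbroken run of 8.85 kb in its introns with no rank above 13.64, of which 1 was found in replicate 1, and without it the gene had 25, or 13.2 per 100 kb. At Nphp4, 14 of 78 formed a run of 10.4 kb with no rank above 4.10 and none found in replicate 1, and without it the gene had 64, or 12.7 per 100 kb. Counting only peaks found in both libraries, Rfx4 had 22 in each, or 11.7 per 100 kb, and Nphp4 43 and 44, or 8.51 and 8.70. The all-gene densities above count every distal peak, so they are no counterpart to these filtered values or to those without the runs. Of all distal peaks, 48.1% and 66.4% were found in the other library. Dync2h1 had few for its length, with 2 and 1 distal peaks in a territory of 490.8 kb, or 0.408 and 0.204 per 100 kb. Genes outside the 5 can be dense as well, since Foxj1 had 6 and 5 distal peaks in a territory of only 20.3 kb.

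Class totals rested on these genes. Transport genes had 56 and 50 distal peaks, BBSome genes 61 and 32, and transition zone genes 91 and 91. Without Nphp4 the other 9 transition zone genes had 18 and 13, and none had more than 5. Without Bbs9 the other 7 BBSome genes had 31 and 16. The class median was 2.5 and 2.5 for transport, 2.5 and 2 for BBSome, and 2 and 1 for transition zone genes. Arl13b and Kif7 had 3 distal peaks between them in each library, and the 4 factor genes had 75 and 84.

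**Figure D4:**
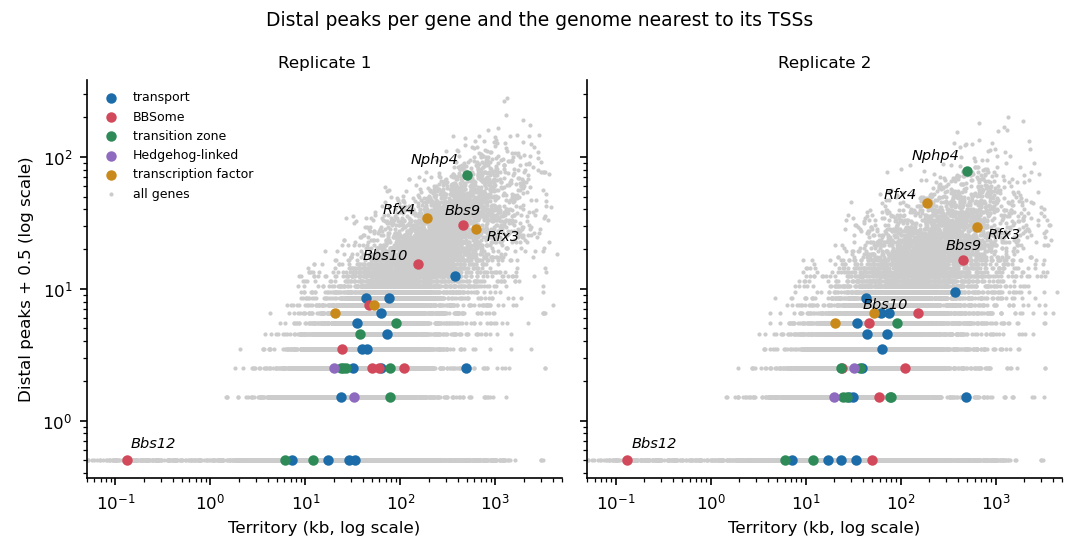
Distal peaks per gene (y axis, count + 0.5, log scale) against the length of genome nearest to its TSSs (x axis, kb, log scale), in each library (panels). Coloured points are cilium genes by class and grey points are all genes. Nphp4 and Rfx4 have the most distal peaks of the cilium genes in both libraries, and Bbs12 has the smallest territory.

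Distal peaks of the leading genes lay in different places. How much of each territory is intronic or intergenic was not measured, so these counts do not set the loci apart. All distal peaks of Nphp4 were downstream of its starts, and 61 of 73 and 68 of 78 were intergenic, up to 479.0 kb away. The direction follows from the nearest-TSS rule. Kcnab2 starts 271 bp upstream of Nphp4, so peaks farther upstream go to Kcnab2. The strongest of them ranked at 91.13 in replicate 1, 140.9 kb away, and at 86.85 in replicate 2, 315.2 kb away. Distal peaks of Bbs9 lay in its own introns in 29 of 30 and 16 of 16 cases, and the strongest was the same interval in both libraries, 73.5 kb downstream, at ranks of 88.83 and 86.49. Those of Rfx4 were mostly in its own introns, with 19 of 34 in replicate 1 and, the weak run included, 32 of 44 in replicate 2. Its strongest lay at -1012 bp, just past the limit of 1 kb, at ranks of 97.53 and 95.20.

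Strong distal peaks were found at some other genes too. Rfx2 had an intronic peak 16.5 kb downstream of its start, at chr17:56814436-56814585 in both libraries, with ranks of 95.73 and 95.40. Kif7 had a peak in an exon 3.88 kb and 3.90 kb downstream, at ranks of 95.97 and 97.46, so its rank was near that of the Kif7 promoter. Ift22, a small GTPase of IFT-B, had an intergenic peak 10.9 kb downstream in each library, with ranks of 94.13 and 88.10. Foxj1 had an intronic peak 2.85 kb and 2.83 kb downstream, with ranks of 86.80 and 83.80.

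Distal peaks of the cilium genes were found again in the other library for 54.2% of those in replicate 1 and 60.4% of those in replicate 2, against 48.1% and 66.4% of all distal peaks. The direction of the difference thus changed between libraries. The share of distal peaks in the top 10% of the list was 4.55% and 1.54% for the cilium genes, against 3.55% and 2.51% of all distal peaks, and also changed direction. Neither measure set the distal peaks near the cilium genes to the same side of all distal peaks in both libraries, whereas the median promoter rank was higher in each.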

How the data were processed

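Peaks and hotspots of 2 DNase-seq libraries were analysed as the authors deposited them on mm10, called separately in each library. No source used here names the aligner, the caller or its threshold. The authors deposited a whole-number score for each peak, and a −log10 q-value for each hotspot, which ended at a ceiling of 100. Depth is unknown, because the deposited files hold no read counts.

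Repeated rows (45 and 22) were removed, and scores were turned into percentile ranks within each list. TSSs were those of protein-coding transcripts of 21853 genes in GENCODE vM21, without the mitochondrial genome. Tctn2 was added with all its 5 TSSs, because vM21 types it as non-coding. Using coding transcripts in place of all transcripts was decided after the annotation was read. The strongest promoter peak had the highest score, with ties going to the peak nearest a TSS. A hotspot or peak overlapped with at least 1 bp. Sequence came from GRCm38.p6 through pysam 0.24.0 and promoter windows from RefSeq on that build. Tables were made with pandas 2.3.3 in Python 3.11.15. Assignment and motif search were tested on simulated peaks.

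The cilium genes and all lists were chosen with earlier results of these data known. Genes given in full are the 2 highest and 2 lowest of each class by mean rank, those without a promoter peak, the 5 with most distal peaks (Bbs10 shares the fifth place with Ift57), and those with a divergent partner or an X-box. Ift52, Ift80, Ift140, Ift22, Rfx3 and Kif7 were added in places after their values were seen. No test was run, since there is 1 group of 2 libraries.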

Additional observations from a re-analysis of the deposited data

How the results depend on the processing

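Under other windows, peak sets, start sites and single libraries, 81 values were recomputed. Of these, 73 stayed close, within 1.5 times for a count or within 1 SD between the libraries for a median, and 8 moved further. Some could not have moved. A median from 1 library always lies within that SD, because the SD comes from the same 2 medians. Keeping only the higher 50% of a list, or equal numbers of peaks, could not remove a strongest promoter peak, since none ranked below 87.80. The tally is therefore no measure of robustness. The number of cilium genes with a promoter peak in both libraries ranged from 38 to 40, and that of the 3 compared classes from 32 to 34 of 34. Restricting each list to its higher 50% by score, which recomputes ranks among fewer peaks, gave a median rank over both libraries of 95.1 for the cilium genes, against 97.6 with all peaks. It gave 94.8 for transport, 94.1 for BBSome and 95.2 for transition zone genes, against 97.4, 97.0 and 97.6. Distal peaks of the cilium genes, 273 per library on average, numbered 111 in the higher 50%, 147.5 within 50 kb of a TSS and 154.5 when each peak went to the nearest TSS of any gene type. By settings chosen after seeing the data, they numbered 156 when only peaks found in both libraries counted, and 222 when ranked at 15 or higher. Counts from 1 library alone were 286 and 260. Carriers of the X-box ranged from 4 to 6 and of GTTGCC from 13 to 20. No paired analysis was possible because there is 1 group. Unknown depth limits the absence of a peak to "not called".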
